A study of Homo sapiens with 4 samples.

Results

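The genes described are SNAI1, SNAI2, ZEB1, ZEB2, TWIST1, TWIST2, VIM, FN1, CDH1 and CDH2, the transcription factors, cytoskeletal and matrix genes and cadherins that are most used to follow the epithelial-mesenchymal transition (EMT). They were chosen by name, and all 10 were found among the 26485 gene identifiers of the deposited tables. The cells were 8505C and SW1736, human lines derived from anaplastic thyroid cancer, an undifferentiated and aggressive tumour. Each line was given dihydrotanshinone (abbreviated DHT in the labels, a diterpenoid of the Chinese sage Salvia miltiorrhiza that is unrelated to the androgen dihydrotestosterone) at 1.5 µM for 24 h, or the DMSO vehicle for the same time. The groups were thus 8505C with DHT, 8505C with DMSO, SW1736 with DHT and SW1736 with DMSO, each with 1 mRNA library, 4 in all. No difference below has a replicate check or a test. With no replicates, folds are described against the spread over all genes. Each line stands for 1 tumour, so a difference between the lines is not a difference between tumour types. The libraries held bulk RNA, in which fewer cells making an mRNA and less of that mRNA in each cell cannot be told apart.

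In EMT, epithelial cells lose the junctions that hold them together and take on the shape and motility of mesenchymal cells. Zinc finger factors of the SNAIL family (SNAI1, SNAI2) and of the ZEB family (ZEB1, ZEB2) bind E-boxes, short DNA motifs with the letters CAGGTG or CACCTG, in the promoters of epithelial genes, and repress CDH1, which encodes E-cadherin. The TWIST factors are basic helix-loop-helix proteins that also act through E-boxes. Cells past this step often carry N-cadherin (CDH2) in place of E-cadherin, keep vimentin (VIM) as an intermediate filament, and deposit fibronectin (FN1) in the matrix. Anaplastic thyroid cancers are known for loss of E-cadherin. mRNA levels do not give the amounts of these proteins, and SNAI1 protein in particular is short-lived.

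The ZEB mRNAs are the best-known targets of the miR-200 family, whose members the ZEB factors repress in turn. The 5 mature sequences are shown because they divide these microRNAs into 2 seed groups, and because the rows of their hairpins in these libraries are given below with ZEB1 and ZEB2. Sequences are those of RefSeq (GRCh38.p14), 5′ to 3′, with the seed (bases 2 to 8) in capitals. The first 3 share the seed of miR-200b, and the last 2 share that of miR-200a.
hsa-miR-200b-3p: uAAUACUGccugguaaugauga
hsa-miR-200c-3p: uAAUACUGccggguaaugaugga
hsa-miR-429: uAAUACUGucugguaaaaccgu
hsa-miR-200a-3p: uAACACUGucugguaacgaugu
hsa-miR-141-3p: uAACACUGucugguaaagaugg

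RefSeq start sites (GRCh38.p14) were at hand for ZEB1 (7 sites), ZEB2, TWIST2, VIM, FN1 and CDH2 (2 sites), 6 of the 10 genes. The 250 bases upstream of each were searched on both strands for the E-box (CAGGTG or its complement CACCTG). They were also searched for TGANTCA, a loose form of the AP-1 motif in which N is any base. Matches to the E-box and to TGANTCA do not overlap each other in these windows. Of 35116 such windows of all annotated genes, 17.5% held an E-box and 6.57% this loose AP-1 form. An E-box was found upstream of ZEB1 at sites 1 and 3. The loose AP-1 form was found upstream of CDH2 at site 2, with the letters TGAATCA. The windows of ZEB2, TWIST2, VIM and FN1 held neither set of letters. A match describes letters and not binding, and no binding was measured. The ZEB1 windows with E-boxes are shown as the windows of these genes that hold them, and that of VIM as the most abundant of these mRNAs, with E-boxes in capitals.
ZEB1 site 1, chr10:31318167-31318416, plus strand: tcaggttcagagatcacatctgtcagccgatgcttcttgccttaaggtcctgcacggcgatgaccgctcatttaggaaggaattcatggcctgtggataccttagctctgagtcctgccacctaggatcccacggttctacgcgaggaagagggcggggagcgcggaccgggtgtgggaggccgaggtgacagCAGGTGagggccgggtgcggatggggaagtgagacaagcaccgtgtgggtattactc
ZEB1 site 3, chr10:31318966-31319215, plus strand: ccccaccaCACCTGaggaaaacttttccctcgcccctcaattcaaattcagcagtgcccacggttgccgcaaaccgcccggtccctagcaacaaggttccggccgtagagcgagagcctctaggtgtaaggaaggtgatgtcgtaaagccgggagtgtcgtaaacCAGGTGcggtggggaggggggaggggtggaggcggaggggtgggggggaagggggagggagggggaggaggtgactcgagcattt
VIM, chr10:17227991-17228240, plus strand: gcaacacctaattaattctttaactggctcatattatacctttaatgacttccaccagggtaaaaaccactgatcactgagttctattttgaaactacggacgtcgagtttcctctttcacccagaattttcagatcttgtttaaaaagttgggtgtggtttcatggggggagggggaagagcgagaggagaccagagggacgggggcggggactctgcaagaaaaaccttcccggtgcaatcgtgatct

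Levels are given as TPM, as deposited, a unit scaled for transcript length that has the same total in each library. Folds are differences of log2(TPM + 1), which understates the fold of low genes. They were set beside the 11704 protein-coding genes whose 4 libraries averaged 1 TPM or more. Of the 10 genes 8 passed that mean, and CDH1 and TWIST2 did not. Aligned bases, from the ratio of coverage to FPKM, came to 4.15 and 3.27 Gb for 8505C with DHT and DMSO, and to 3.85 and 3.67 Gb for SW1736. The number of reads is unknown, and counting intervals are therefore left out.

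The labelled cell type was checked on marker genes. Epithelial keratins (KRT7, KRT8, KRT18 and, in SW1736 alone, KRT19, which was listed at 0 in 8505C) summed to 3656 and 2910 TPM in 8505C with DHT and DMSO, and to 3902 and 4028 TPM in SW1736. Of 8 thyroid follicular markers 4 reached a mean of 1 TPM, and each line lacked part of them. The thyroid transcription factor gene NKX2-1 was at 174 and 69.8 TPM in 8505C with DHT and DMSO and listed at 0 in SW1736. PAX8, at 117 and 87.1 TPM, and FOXE1, at 22.3 and 60.6 TPM, were factors of SW1736 and at 0.282 TPM or less in 8505C. HHEX was found in both, whereas the thyrotropin receptor gene TSHR was listed at 0 throughout and the thyroglobulin gene TG was at most 0.0587 TPM. SLC5A5, of the same list, was at 2.39 TPM in SW1736 with DHT and listed at 0 in SW1736 with DMSO and in 8505C. Of 5 immune markers 2 reached it, CD68 and CD14, with CD3E listed at 0. The melanocyte and neural list had 1 of 6, MITF.

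With DHT, SW1736 carried far more SNAI1 and SNAI2 mRNA than with vehicle, while the other 8 genes were within 2-fold of it or at or near 0. In 8505C none of the 8 genes that averaged 1 TPM or more was 2-fold apart between DHT and vehicle. Of these 8 genes, SW1736 with DHT had 2 at least 2-fold higher and 0 lower, where 2.78% of all genes were higher and 15.6% lower. In 8505C the counts were 0 and 0, beside 0.273% and 0.171% of all genes. The median log2 fold of the 8 genes was 0.29 in SW1736, beside -0.42 for all genes, and 0.06 in 8505C, beside -0.03.

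**Figure D1:**
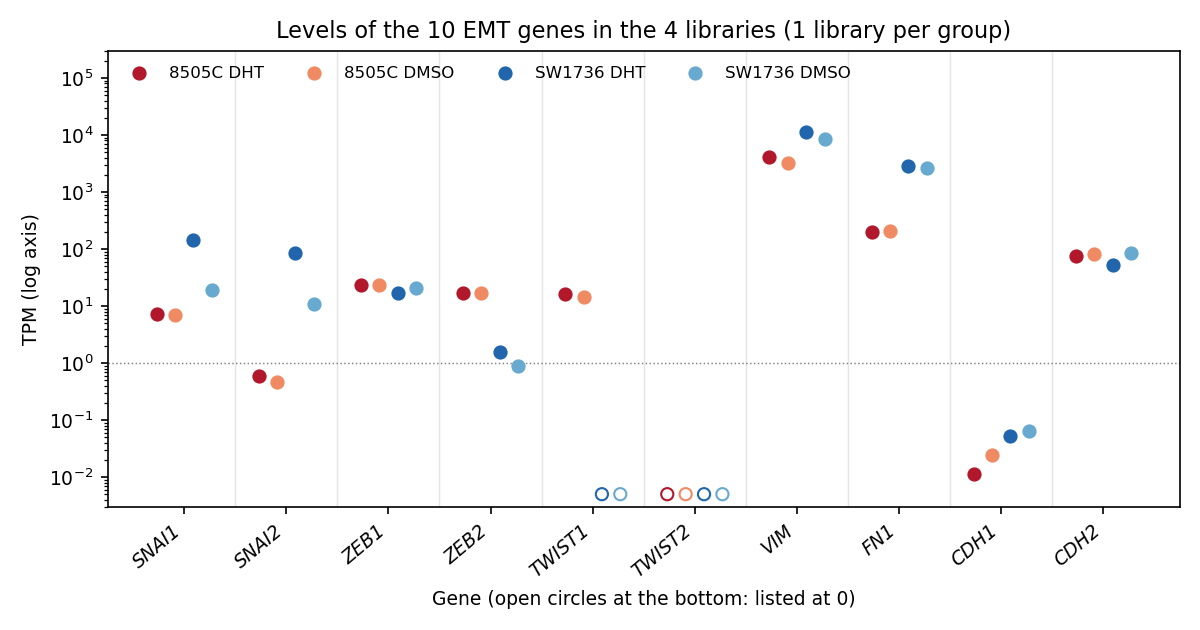
TPM of the 10 EMT genes (log axis, 1 point per library). Open circles at the bottom are values listed at 0, and the dotted line marks 1 TPM. SNAI1 and SNAI2 stood at 146 and 85.6 TPM in SW1736 with DHT, above their other 3 libraries, and FN1 and VIM were higher in both SW1736 libraries than in both 8505C libraries.

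Most genes of SW1736 were lower in TPM with DHT. Over genes that averaged 5 TPM or more the median log2 fold was -0.43 there and -0.03 in 8505C, and folds are therefore also given relative to that median gene. Centred on it, 4.78% of the 11704 genes stood 2-fold above DMSO in SW1736 and 4.07% below it. The shares were 2.92% and 6.02% with FPKM, and 3.18% and 13.2% when TPM was rescaled over protein-coding genes that do not encode ribosomal proteins. The counts of the EMT genes stayed at 2 higher and 0 lower under all of these. The summed FPKM of SW1736 was 511866 with DHT and 438583 with DMSO, beside 444082 and 437144 in 8505C.

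SNAI1 (chromosome 20, 49982976 to 49988883, hg38 coordinates of the deposited tables), the founding SNAIL repressor in mammals, stood at 146 TPM in SW1736 with DHT and 19.2 TPM with DMSO. In 8505C it stood at 7.30 TPM with DHT and 6.83 TPM with DMSO. The SW1736 library with DHT was thus the highest, followed by SW1736 with DMSO and then by both 8505C libraries, which lay close together. The ratio of DHT to DMSO was 7.61 in SW1736 and 1.07 in 8505C, with log2 folds of 2.86 and 0.09. Relative to the median gene the fold of SW1736 was 3.29. Deposited coverage, the mean read depth over the exons, was 288 in SW1736 with DHT and 31.0 with DMSO, and 13.4 and 9.75 in 8505C.

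SNAI2 (chromosome 8, 48917681 to 48921440), also called SLUG and tied to neural crest and wound edge cells, had a like profile at a lower level. It stood at 85.6 TPM in SW1736 with DHT and 10.8 TPM with DMSO, a ratio of 7.96 and a log2 fold of 2.88, or 3.31 relative to the median gene. In 8505C it was at 0.595 TPM with DHT and 0.463 TPM with DMSO, at coverages of 1.10 and 0.661. It was therefore under 1 TPM in both 8505C libraries, where its log2 fold of 0.12 rests on this low coverage. Counting each gene itself, 63 of the 11704 genes had a fold in SW1736 as high as that of SNAI1 or higher, and 62 one as high as that of SNAI2.

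The ratio of the SNAIL mRNAs differed more between the lines than between DHT and DMSO. SNAI1 over SNAI2 was 1.71 with DHT and 1.79 with DMSO in SW1736, and 12.3 and 14.7 in 8505C. Together they made 232 TPM in SW1736 with DHT and 29.99 with DMSO, against 7.90 and 7.29 in 8505C. The DHT fold of 8505C minus that of SW1736 was -2.78 for SNAI1 and -2.76 for SNAI2 on the log2 scale, and these were the 2 of the 8 genes at which the lines lay at least 2-fold apart in their DHT fold. Of all 11704 genes 2.79% lay at least that far below 0 in this difference and 14.4% above it, or 4.61% and 3.85% relative to the median genes. For SNAI1 and SNAI2 the difference could not be tested with 1 library per group.

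**Figure D2:**
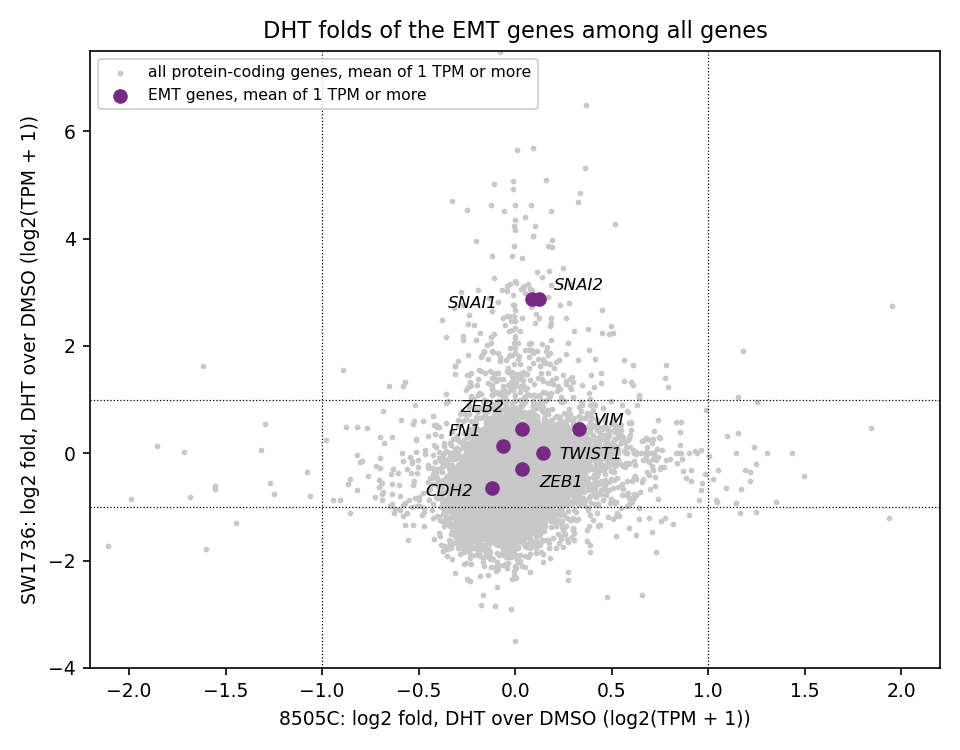
Log2 fold of DHT over DMSO in 8505C (horizontal) and in SW1736 (vertical) for 11704 protein-coding genes (grey) and the 8 EMT genes that averaged 1 TPM or more (purple). Dotted lines mark 2-fold, and 9 genes lie outside the axes. SNAI1 (0.09 in 8505C, 2.86 in SW1736) and SNAI2 (0.12, 2.88) lie above the 2-fold line of SW1736, and the other 6 lie inside both lines. TWIST1, listed at 0 in SW1736, is drawn at 0 on that axis.

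ZEB1 (chromosome 10, 31319172 to 31529814), a repressor of CDH1 and of the miR-200 genes, was at a similar TPM in all libraries. It stood at 23.8 TPM in 8505C with DHT and 23.1 with DMSO, and at 16.9 in SW1736 with DHT and 20.9 with DMSO. The log2 fold was 0.04 in 8505C and -0.29 in SW1736, and the SW1736 value turns to 0.14 relative to the median gene, so that no direction is given for SW1736. All 4 values lay within 1.41-fold of each other.

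ZEB2 (chromosome 2, 144384375 to 144520391), the other ZEB factor, differed between the lines. It was at 17.2 TPM in 8505C with DHT and 16.7 with DMSO, against 1.57 in SW1736 with DHT and 0.880 with DMSO. 8505C was thus 10.9-fold above SW1736 with DHT and 19.0-fold with DMSO in the ratio of TPM. The DHT fold of SW1736 was 0.45 on the log2(TPM + 1) scale, from a ratio of 1.78 between low levels. ZEB2 overlaps ZEB2-AS1 on the opposite strand, which was listed at 0 in all libraries.

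The order of ZEB1 and ZEB2 depends on the deposited column that is read. By TPM, ZEB1 was 1.38-fold above ZEB2 in 8505C with DHT and 1.39-fold with DMSO, and 10.8-fold and 23.7-fold above it in SW1736. By coverage, ZEB1 was at 1.72 and 1.30 in 8505C and 1.31 and 1.32 in SW1736 with DHT and DMSO, while ZEB2 was at 18.4 and 13.8 in 8505C and 1.68 and 0.780 in SW1736. In 3 of the 4 libraries ZEB2 was the higher by coverage. The coverage of ZEB1 per unit of FPKM was 3.92% to 3.93% of the highest ratio found in each library, and that of ZEB2 was 54.4% to 58.1%. It was 87.9% to 92.8% for FN1, 97.4% for CDH2 and 100% for SNAI1, SNAI2, TWIST1, VIM and CDH1. Among all 11704 genes 193 (1.65%) were under 10%. Since the share of ZEB1 is nearly equal in all libraries it leaves the folds of ZEB1 as they are, but its level beside other genes is uncertain. ZEB1 has 25 transcripts in GENCODE release 29 and ZEB2 48, and which of them the deposited values rest on is not known here.

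The hairpin genes of the miR-200 family, looked up after the levels of ZEB1 and ZEB2 had been seen, had little signal. MIR200C and MIR141 were listed at 0 in all 4 libraries. MIR200A, MIR200B and MIR429 were listed at 0 in both 8505C libraries, and in SW1736 with DHT and DMSO they stood at 0.507 and 0 TPM, 0.160 and 1.26 TPM, and 1.68 and 0.299 TPM. The seed group of miR-200b, shown above, thus had 2 of its 3 hairpins listed in SW1736 and none in 8505C. In the seed group of miR-200a, MIR200A was likewise listed in SW1736 alone. The coverage of the values above 0 was 0.316 to 3.31, so that they rest on few reads. Libraries of this kind capture poly(A) RNA and not mature microRNAs, whose levels are not known from these data.

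TWIST1 (chromosome 7, 19115468 to 19117672), a basic helix-loop-helix factor of mesoderm and neural crest, was present in 1 line. It stood at 16.2 TPM in 8505C with DHT and 14.6 TPM with DMSO and was listed at 0 in both SW1736 libraries. The 8505C values were 0.14 apart on the log2 scale. No ratio is given against a value of 0, and the size of its log2 fold between the lines rests on the 1 added to TPM. TWIST2 (chromosome 2, 238848032 to 238910548), its close relative, was listed at 0 in all 4 libraries. No gene with at least 10 TPM in 3 libraries was listed at 0 in the remaining one. That look at single libraries cannot bear on TWIST1, at 0 in both SW1736 libraries, or on TWIST2.

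The 6 factors together made 65.1 TPM in 8505C with DHT and 61.7 with DMSO, and 250.4 TPM in SW1736 with DHT and 51.8 with DMSO. In 8505C the SNAIL genes held 12.1% of this sum with DHT and 11.8% with DMSO, the ZEB genes 63.0% and 64.6%, and TWIST1 24.9% and 23.6%. In SW1736 the SNAIL genes held 92.6% with DHT and 58.0% with DMSO, and the ZEB genes 7.39% and 42.0%. By TPM the makeup of 8505C was therefore nearly the same with and without DHT, and that of SW1736 was not. The SW1736 contrast rests on ZEB1, which held 6.76% of the sum with DHT and 40.3% with DMSO. By coverage, where ZEB1 counts for less, the SNAIL genes held 22.6% and 22.4% in 8505C, the ZEB genes 31.2% and 32.7%, and TWIST1 46.2% and 44.9%. The SNAIL genes then held 99.3% in SW1736 with DHT and 95.8% with DMSO, so that the makeup of SW1736 too was nearly the same with and without DHT. The leading family of 8505C thus differs between TPM (ZEB) and coverage (TWIST), and that of SW1736 is SNAIL by both.

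**Figure D3:**
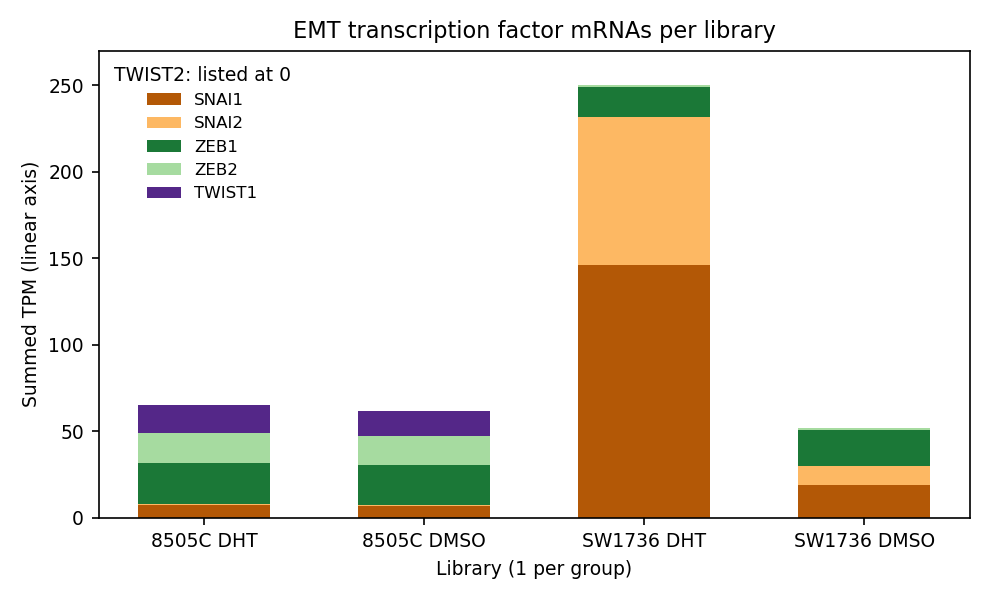
Summed TPM of the EMT transcription factors in each library (stacked bars, linear axis, 1 library per group). The SW1736 library with DHT reaches 250.4 TPM, mostly SNAI1 and SNAI2, against 51.8 TPM with DMSO, while both 8505C libraries hold ZEB1, ZEB2 and TWIST1 in similar amounts and sum to 65.1 and 61.7 TPM. The height of ZEB1 is uncertain, as its coverage is low for its TPM.

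VIM (chromosome 10, 17228259 to 17237593), which encodes the intermediate filament of mesenchymal cells, was among the most abundant mRNAs of both lines. It stood at 4076 TPM in 8505C with DHT and 3241 with DMSO, and at 11431 in SW1736 with DHT and 8401 with DMSO. Among protein-coding genes it ranked 15 and 26 in 8505C and 1 and 2 in SW1736, and it alone held 1.14% of all TPM in SW1736 with DHT. In both lines the DHT library was the higher, by a log2 fold of 0.33 in 8505C and 0.44 in SW1736, or 0.36 and 0.87 relative to the median gene. Neither reached 2-fold. Of the 11704 genes, 547 had a fold as high in 8505C and 759 in SW1736.

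Reads of VIM and of its antisense gene VIM-AS1, which overlaps it on the opposite strand, cannot be told apart without the strand setting of the counting, which no label or header states. VIM-AS1 was at 2.95 and 2.21 TPM in 8505C with DHT and DMSO and at 7.82 and 5.88 in SW1736. These values are small beside those of VIM.

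FN1 (chromosome 2, 215360440 to 215436070), the fibronectin gene, differed between the lines and was near equal between the treatments. It stood at 201 TPM in 8505C with DHT and 209.9 with DMSO, against 2827 in SW1736 with DHT and 2583 with DMSO. The log2 fold of 8505C over SW1736 was -3.81 with DHT and -3.62 with DMSO. The DHT fold was -0.06 in 8505C and 0.13 in SW1736, or -0.03 and 0.56 relative to the median gene. VIM over FN1 was 20.3 and 15.4 in 8505C with DHT and DMSO and 4.04 and 3.25 in SW1736.

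Fibroblasts also make VIM and FN1, and their markers were read beside them. Of 9 fibroblast markers 3 reached a mean of 1 TPM, and the list summed to 8.98 and 3.45 TPM in 8505C with DHT and DMSO and to 283 and 589 in SW1736. COL1A1, at 146 and 349.9 TPM with DHT and DMSO, and COL1A2, at 136 and 237 TPM, made nearly all of that sum in SW1736. COL3A1 ran the other way and made most of the sum in 8505C. It was at 7.77 and 2.69 TPM in 8505C with DHT and DMSO, and at 0.137 and 0.301 TPM in SW1736. DCN, LUM, PDGFRA and FAP were at 0.121 TPM or less in all libraries. The part of such cells in the levels of VIM and FN1 was not tested.

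E-cadherin mRNA was nearly absent from both lines. CDH1 (chromosome 16, 68737292 to 68835541) was at 0.0113 TPM in 8505C with DHT and 0.0247 with DMSO, and at 0.0526 in SW1736 with DHT and 0.0631 with DMSO. Its coverage was 0.0208 and 0.0353 in 8505C and 0.104 and 0.102 in SW1736, a mean depth far under 1 read per base. At such depths the libraries cannot be ordered, and no fold is given. A small RNA gene, MIR7641-2, overlaps CDH1 and stood at 0 TPM in 8505C and at 1.22 and 2.57 TPM in SW1736 with DHT and DMSO. Whether the treatment lowered CDH1 was not detectable, since it was already at this level with DMSO.

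N-cadherin mRNA was present throughout. CDH2 (chromosome 18, 27950963 to 28177446), a cadherin of neurons and mesenchyme, stood at 75.0 TPM in 8505C with DHT and 81.5 with DMSO, and at 53.3 in SW1736 with DHT and 83.9 with DMSO. The SW1736 library with DHT was the lowest of the 4, with a log2 fold of -0.64 against DMSO, or -0.22 relative to the median gene. In 8505C the fold was -0.12. The ratio of CDH2 to CDH1 was 1015 or more in every library, though it rests on the low coverage of CDH1.

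CDH3, CDH5, CDH11 and CDH13 differed more between the lines than CDH2 did. CDH5 (VE-cadherin, the cadherin of endothelium) stood at 147 TPM in 8505C with DHT and 128 with DMSO, above CDH2, and was listed at 0 in SW1736. CDH13 (T-cadherin, which has no cytoplasmic tail) was listed at 0 in 8505C and stood at 135 TPM in SW1736 with DHT and 129 with DMSO. CDH11 (OB-cadherin, a cadherin of mesenchyme and bone-forming cells) was likewise listed at 0 in 8505C, and stood at 19.0 TPM in SW1736 with DHT and 37.2 with DMSO. CDH3 (P-cadherin) was at 0.331 and 0.199 TPM in 8505C and at 4.30 and 5.37 in SW1736. CDH4 (R-cadherin), which has several loci in the tables and is less certain, stood at 65.5 and 64.8 TPM in 8505C, and at 53.4 in SW1736 with DHT and 109 with DMSO.

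Both lines thus had CDH2 and CDH4 in common, and also CDH24. CDH24 stood at 13.1 and 11.9 TPM in 8505C with DHT and DMSO and at 19.1 and 22.4 in SW1736. CDH5 was found in 8505C alone, and CDH11 and CDH13 in SW1736 alone. Of the endothelial markers other than CDH5, TIE1 was at 59.7 and 43.4 TPM in 8505C, while KDR was listed at 0 and PECAM1, VWF and TEK were at 0.414 TPM or less in all libraries. Of the catenins, which link cadherins to actin, CTNNA1 stood at 296 and 302 TPM in 8505C with DHT and DMSO and at 181 and 277 in SW1736. CTNNB1, beta-catenin, stood at 191 and 207 TPM in 8505C and at 95.4 and 182 in SW1736, and CTNND1, p120-catenin, at 85.6 and 91.3 and at 38.0 and 90.4. Of 10 cadherins and catenins other than CDH1 and CDH2 that passed the mean of 1 TPM, 0 were 2-fold higher and 2 lower with DHT in SW1736 (median -0.57), CTNND1 (-1.23) and CDH4 (-1.02). Of all genes 2.78% were higher and 15.6% lower there, with a median of -0.42. Centred on the median gene, none of the 10 was 2-fold either way.

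**Figure D4:**
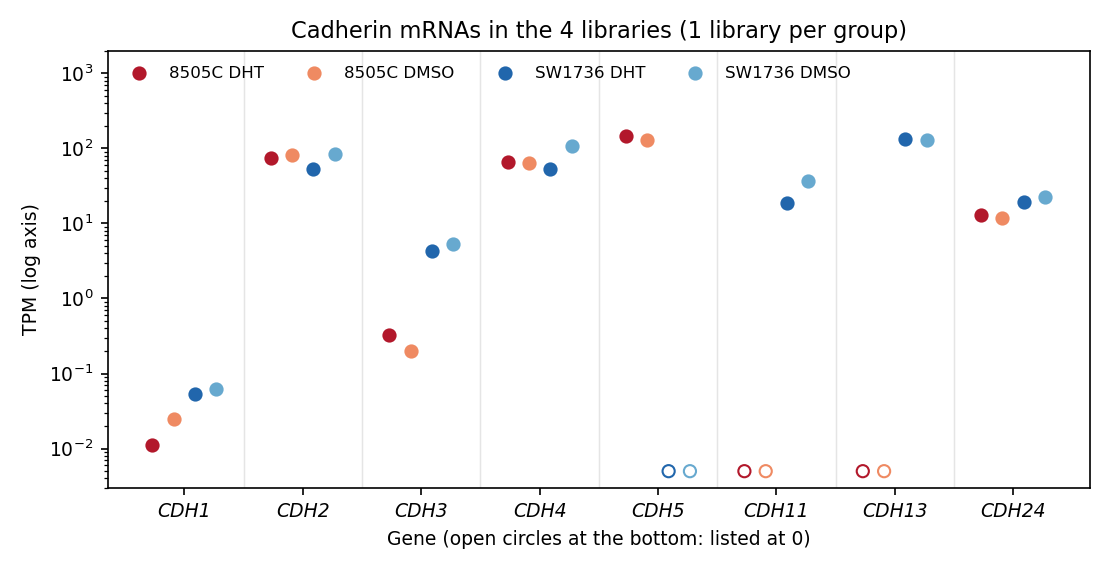
TPM of 8 cadherin genes (log axis, 1 point per library, open circles listed at 0). CDH2 and CDH4 are at 53.3 TPM or more and CDH24 at 11.9 TPM or more in all 4 libraries. CDH5 appears in 8505C alone, and CDH11 and CDH13 in SW1736 alone. CDH1 is at 0.0631 TPM or less in all 4.

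Set directly against each other, the lines differed in most of the 10 genes. With DMSO, 2 of the 8 genes above a mean of 1 TPM stood at least 2-fold above SW1736 in 8505C (ZEB2 and, against a value of 0, TWIST1) and 4 below it (SNAI1, SNAI2, VIM and FN1), where 9.97% of all genes were higher and 12.6% lower. With DHT the same 6 genes were 2-fold apart in the same directions, where 24.7% of all genes were higher and 10.6% lower, or 14.4% and 16.3% relative to the median gene. Both line comparisons and both DHT comparisons draw on the same 4 libraries, so their values are not independent. The log2 fold of 8505C over SW1736 was -4.15 with DHT and -1.37 with DMSO for SNAI1, and -5.76 and -3.01 for SNAI2. It was -1.49 and -1.37 for VIM. ZEB1 (0.47 and 0.14) and CDH2 (0.48 and -0.04) were within 2-fold both ways, and relative to the median gene they were at 0.09 and 0.10 with DHT.

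Genes of the same pathways were counted by lists of their roles, without a test. The counts of SW1736 with DHT are to be read beside the shares of all genes given above, 2.78% higher and 15.6% lower, or 4.78% and 4.07% relative to the median gene, and beside the median of all genes of -0.42. Of 11 partner transcription factors that act beside the SNAIL, ZEB and TWIST factors and passed the mean of 1 TPM, SW1736 with DHT had 2 at least 2-fold higher and 0 lower (median log2 fold 0.13). They were ID2 (2.21), an inhibitor of basic helix-loop-helix factors, and SOX9 (1.05). SOX4 (1.39) and FOXC1 (1.35) joined them relative to the median gene. ID1, the most abundant of the list, was at 314 TPM with DHT and 591 with DMSO in SW1736. Between the lines, FOXC2 stood at 58.7 and 58.8 TPM in 8505C with DHT and DMSO, and at 0.0978 and 0 in SW1736. FOXC2, like TWIST1, was thus at or near 0 in SW1736.

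Of 12 regulators of epithelial identity only 4 passed the mean of 1 TPM. The factors GRHL2, OVOL2 and ESRP1, which sustain epithelial programmes, were at 0.356 TPM or less in all libraries. Their relatives were not all so low. GRHL1 was at 1.40 to 1.86 TPM over the 4 libraries. ESRP2 was at 2.15 and 2.80 TPM in SW1736 with DHT and DMSO, and at 0.103 and 0.0823 in 8505C. KLF4 stood at 48.1 TPM in SW1736 with DHT and 5.37 with DMSO (log2 fold 2.95), and KLF5 at 35.0 and 15.5 TPM (1.13). Relative to the median gene these folds were 3.37 and 1.55. In 8505C KLF4 was at 8.72 and 8.77 TPM and KLF5 at 90.5 and 80.8 TPM.

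The co-repressors through which SNAIL and ZEB factors act, such as histone deacetylases and Polycomb proteins, were all present. SW1736 with DHT had 0 of 13 at least 2-fold higher and 5 lower (median -0.66), where 15.6% of all genes were lower, and EED (-1.74), LIMD1 (-1.20), AJUBA (-1.13) and SIN3A (-1.09) were the lowest. Of these, EED (-1.31) was 2-fold lower relative to the median gene. HDAC1 was at 123 TPM with DHT and 180.3 with DMSO in SW1736, and at 155 and 158 in 8505C. KDM1A, a histone demethylase bound by SNAI1, was at 65.5 and 104 TPM in SW1736, and at 109.9 and 121 in 8505C.

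Enzymes that mark or remove SNAIL and TWIST proteins were counted because the mRNAs do not show protein turnover. Of 13, 0 were 2-fold higher and 3 lower with DHT in SW1736 (median -0.32), namely the ubiquitin ligase subunits FBXL5 (-1.19) and BTRC (-1.06) and the deubiquitinase USP27X (-1.11), which stabilises SNAI1. This list is close to all genes, of which 15.6% were lower with a median of -0.42. Both counts were 0 relative to the median gene. GSK3B, the kinase that marks SNAI1 for removal, stood at 55.9 and 56.6 TPM in 8505C, and at 14.9 and 24.1 TPM in SW1736 with DHT and DMSO.

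Of 25 epithelial junction genes known to be repressed in EMT, 16 passed the mean of 1 TPM. EPCAM, CLDN3, OCLN, CRB3, RAB25 and ST14 were among the 9 that did not, each at 0.895 TPM or less in all libraries. With DHT in SW1736, 0 were 2-fold higher and 4 lower (median -0.31): LLGL2 (-1.39) and the desmosome genes DSP (-1.16), DSG2 (-1.15) and PKP2 (-1.01). None of the 16 was 2-fold apart relative to the median gene. Against SW1736, 8505C had 4 of these genes higher and 1 lower with DMSO, and 10 higher and 1 lower with DHT (7 and 1 relative to the median gene). The shares of all genes were 9.97% higher and 12.6% lower with DMSO, and 24.7% and 10.6% with DHT, or 14.4% and 16.3% relative to the median gene. DSG2 stood at 65.3 and 67.8 TPM in 8505C, and at 9.25 and 21.8 in SW1736. DSC2 stood at 6.10 and 6.31 TPM in 8505C and was listed at 0 in SW1736.

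Not all junction mRNAs were as low as CDH1. CLDN1, a claudin of tight junctions, stood at 58.0 and 64.7 TPM in 8505C with DHT and DMSO and at 78.7 and 81.4 TPM in SW1736.

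Of 7 further intermediate filament genes and their linkers beside VIM, 0 were higher and 3 lower with DHT in SW1736 (median -0.83): SYNM (-1.51), PLEC (-1.40) and LMNB1 (-1.17). SYNM alone was 2-fold lower relative to the median gene (-1.08). VIM was thus above DMSO in the library in which these 3 were below it. INA, a neuronal filament gene, was listed at 0 in 8505C and stood at 44.7 and 51.5 TPM in SW1736 with DHT and DMSO.

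Of 11 fibronectin receptor and matrix genes, 0 were higher and 3 lower with DHT in SW1736 (median -0.38). The integrin genes ITGAV (-1.48) and ITGB3 (-1.37) and the fibrillin gene FBN1 (-1.47) were the 3, and ITGAV (-1.06) and FBN1 (-1.04) stayed at 2-fold relative to the median gene. ITGB1, the beta chain of most fibronectin receptors, was at 475 and 485 TPM in 8505C, and at 432 and 792 in SW1736 with DHT and DMSO. TNC, tenascin C, ran opposite to FN1 between the lines, at 90.2 and 77.0 TPM in 8505C and 7.05 and 5.47 in SW1736.

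Mesenchymal effector genes encode the contractile, matrix and signalling proteins of mesenchymal cells. Of the 20 listed, SW1736 with DHT had 0 at least 2-fold higher and 3 lower (median -0.60): COL1A1 (-1.25), COL5A2 (-1.23) and THBS1 (-1.14). Centred on the median gene, S100A4 (1.08) was higher and none lower. AXL, a receptor kinase linked to EMT, was at 631 and 631 TPM in 8505C, and at 416 and 712 in SW1736 with DHT and DMSO. Between the lines 1 gene was higher and 11 lower in 8505C with DMSO (median -1.47, beside -0.05 for all genes, of which 12.6% were lower). With DHT 3 were higher and 8 lower (median -0.73, beside 0.37 for all genes, of which 10.6% were lower), or 3 and 11 relative to the median gene. COL1A1 stood at 0.773 and 0.496 TPM in 8505C, against 146 and 349.9 in SW1736, and GAS6, the ligand of AXL, at 9.20 and 8.61 against 134 and 151.

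TGF-beta is the best-known inducer of SNAI1 and SNAI2, and its pathway was read last. Of 15 ligands, receptors and SMADs, SW1736 with DHT had 1 at least 2-fold higher and 3 lower (median -0.59). SMAD7, an inhibitory SMAD, stood at 51.1 TPM in SW1736 with DHT and 6.39 with DMSO (2.82), and at 4.04 and 4.35 in 8505C. SMAD3 (-1.16), TGFB2 (-1.14) and the receptor gene TGFBR1 (-1.10) were the lower ones, and relative to the median gene none of them was 2-fold lower while SKIL (1.41) joined SMAD7. TGFB1 was at 105 and 101 TPM in SW1736 and 73.3 and 70.3 in 8505C. TGFBR3, betaglycan, stood at 41.9 and 36.9 TPM in 8505C, against 0.488 and 1.08 in SW1736. In 8505C none of the genes in any of the 10 lists was 2-fold apart between DHT and DMSO. Of all genes only 0.273% were higher and 0.171% lower there, so few or none would stand out in lists of this size.

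**Figure D5:**
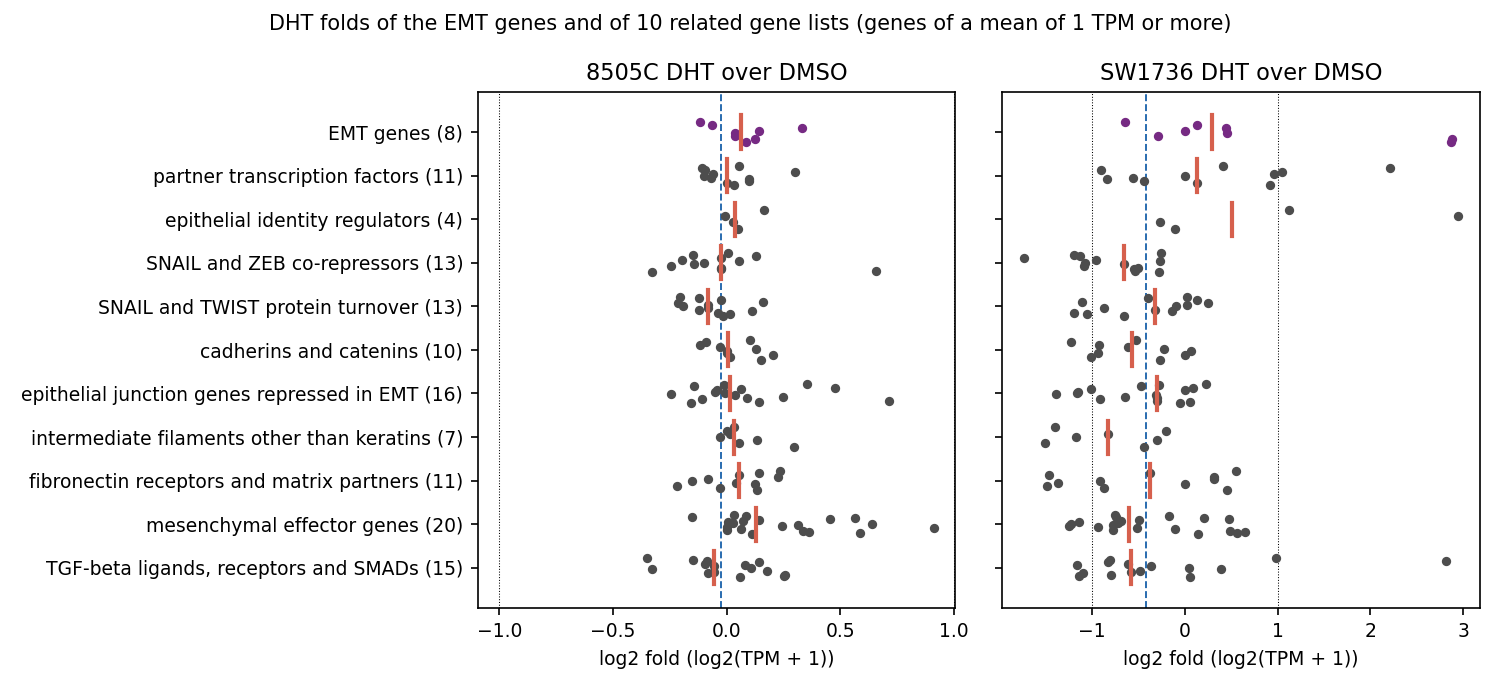
Log2 fold of DHT over DMSO for the 8 EMT genes (purple) and for the genes of 10 related lists (grey) in 8505C (left) and SW1736 (right), with genes per list in brackets. Red bars are list medians, the blue dashed line is the median of all 11704 genes (-0.03 in 8505C, -0.42 in SW1736) and dotted lines mark 2-fold. In SW1736 the list medians lie between -0.83 and 0.51, and a few genes, among them SNAI1, SNAI2, KLF4 and SMAD7, lie near 3.

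For each of the 8 EMT genes, all of which averaged 5 TPM or more, the genes with the most similar profile over the 4 libraries were found among 9748 by the Euclidean distance of log2(TPM + 1) centred on each gene's mean. Nearest to SNAI1 were HDAC9 (0.216), at 1.10, 1.12, 31.6 and 3.82 TPM in 8505C with DHT, 8505C with DMSO, SW1736 with DHT and SW1736 with DMSO, and RHOB (0.351), at 15.3, 14.5, 248 and 28.8 TPM. SNAI2 had no gene nearer than HES1 (1.08), at 4.50, 3.88, 173 and 15.5 TPM, and LYPD3 (1.10). Within a distance of 0.25 lay 0 genes for SNAI2 and 1 for SNAI1, beside 941 for ZEB1 and 887 for CDH2. The distance is not scaled for the width of a profile, so wide profiles have few neighbours by it. Over the 4 libraries log2(TPM + 1) spanned 5.89 for SNAI2 and 4.23 for SNAI1, beside 0.468 for ZEB1 and 0.644 for CDH2. The nearest to ZEB1 were ADSS (0.0296) and EXOSC10 (0.0368), and the nearest to CDH2 was PITPNB (0.0120). ZEB2 lay nearest to STARD4 (0.197) and SERPINE2 (0.216), and TWIST1 to NLGN4X (0.0816) and WSCD1 (0.114). VIM lay nearest to EMP3 (0.0906) and CCDC130 (0.128), and FN1 to LYPD6B (0.133) and NPC2 (0.155). With 4 points per profile, such likeness is a description of these libraries.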

How the data were processed

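mRNA libraries were made from 1 µg of total RNA with the Universal Plus mRNA-Seq kit, per the labels' protocols. The submitters' processing notes name bcl2fastq 2.20, StringTie and the build hg38. No aligner, annotation or StringTie version is given in the sources used here. For each gene and locus the authors deposited TPM, FPKM and mean coverage, per the file headers. The deposited TPM has the same total in each library, so that a gain of some mRNAs lowers all others. The deposited FPKM takes account of length and mapped fragments, and coverage as deposited by the authors is not scaled by library.

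Rows of one gene identifier were summed (1446 identifiers had several rows). Of 26485 identifiers 25362 were matched to a gene, 23758 by RefSeq symbol, 671 through GENCODE release 29 and 933 by a synonym. The rest held 0.592% of TPM. Of 19027 protein-coding genes 11704 had a mean of at least 1 TPM. Log2 folds are differences of log2(TPM + 1), computed in Python 3.11.15 with pandas 2.3.3 and numpy 2.4.6 from the TPM that the authors deposited, and drawn with matplotlib 3.10.9. With 1 library per group no test was run. The fold and count steps were run on simulated data without noise, which checks their arithmetic alone.

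The EMT genes and the 10 related lists were chosen with earlier results of these data known. Named are all 10 EMT genes, up to 4 genes per list and comparison that were at least 2-fold apart, the 2 most abundant of each list, and 2 genes per profile likeness. The miR-200 hairpins, the genes under 1 TPM, VIM-AS1, ZEB2-AS1, S100A4, SOX4, FOXC1, CDH24 and GRHL1 were named after their values were seen. Values of a few genes that this rule names are not reported here. The alternatives were pseudocounts of 0.1 and 5, FPKM, scaling on the median gene, rescaling without non-coding and ribosomal protein genes, no filter, a mean of 5 TPM and a 1.5-fold threshold. Coverage was added after the data were seen.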

Additional observations from a re-analysis of the deposited data

Results flagged for a closer look

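Log2 folds with DHT of opposite sign in the lines were looked for among the EMT genes, whatever their size, and among the named list genes where 1 line was at least 2-fold apart and the other at least 1.2-fold. None of these differences was tested. ZEB1 stood at 0.0378 in 8505C and at -0.29 in SW1736, but at 0.07 in 8505C and 0.14 in SW1736 relative to the median gene, so that no direction is given. FN1 stood at -0.0632 in 8505C and at 0.13 in SW1736, or at -0.03 and 0.56 relative to the median gene. Its TPM was near equal between the treatments in both lines, with ratios of DHT to DMSO of 0.957 and 1.09. COL5A2, a fibrillar collagen gene of the mesenchymal list, was at 5.65 and 3.27 TPM in 8505C with DHT and DMSO (0.64) and at 6.06 and 15.5 TPM in SW1736 (-1.23). Signs differed for 57 of the 119 list genes in all, and COL5A2 was the 1 that met these sizes. This depended on the centring. Relative to the median gene COL5A2 stood at -0.80 in SW1736 and did not meet them. SKIL was then the 1 that did, at 1.41 in SW1736 (before centring 0.98 there and -0.35 in 8505C). LOX (0.91 in 8505C, -0.52 in SW1736), CLDN7 (0.71, -0.30) and CTBP2 (0.66, -0.54), named after their values were seen, had larger folds than COL5A2 in 8505C and were under 2-fold in both lines.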

How the results depend on the processing

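The number of EMT genes at least 2-fold apart was the same in all 4 comparisons under the 8 alternatives and under coverage, except that at 1.5-fold SW1736 with DHT had 2 higher and 1 lower (CDH2). No log2 fold of the EMT genes that was at least 2-fold changed sign. The fold of SW1736 with DHT ranged from 2.64 to 3.29 for SNAI1, from 2.52 to 3.31 for SNAI2, from -0.30 to 0.14 for ZEB1, from 0.44 to 0.87 for VIM and from -0.65 to -0.22 for CDH2. Of 32 folds of the 8 genes, 5 moved with FPKM, 5 with a pseudocount of 0.1 and 6 with a pseudocount of 5, with the widest ranges in 8505C over SW1736: TWIST1, listed at 0 in SW1736, from 2.08 to 7.35 with DHT and from 1.97 to 7.20 with DMSO, SNAI2 from -6.95 to -4.02 and from -4.27 to -1.53, and ZEB2 from 1.76 to 3.37 and from 1.88 to 4.10. The counts of most related lists in SW1736 depended on the centring, as given with each list. They also depended on the pseudocount. At 0.1, SW1736 with DHT had 3 partner factors higher and 1 lower, and 2 TGF-beta genes higher and 5 lower. Of all genes 3.62% were then higher and 20.8% lower. Over all 4 comparisons, 11 list counts fell by more than 1.5-fold with a pseudocount of 5, and 7 with FPKM. The precision is limited by 1 library per group and by unknown read numbers, most of all for CDH1, for SNAI2 in 8505C and for ZEB2 in SW1736. No paired analysis was possible because each group has 1 library and no test was run.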
